A study of Homo sapiens with 16 samples.

Results

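HOX genes encode homeodomain transcription factors that set the identity of body regions along the head-to-tail axis. In humans they lie in 4 clusters, HOXA on chromosome 7, HOXB on chromosome 17, HOXC on chromosome 12 and HOXD on chromosome 2, and genes of equal number in different clusters (paralogs, numbered 1 to 13) descend from a common ancestor gene. Low numbers act towards the head and high numbers towards the tail and in the limbs and genital region. Adult cells and tumours often keep part of the pattern of the region they arose from, which is why the set of HOX genes a cell uses is called its positional code. The members were taken as every HOXA, HOXB, HOXC or HOXD gene with a transcript cluster that names it alone, a transcript cluster being the set of probes that the array reads as 1 gene. These were 22 of the 39 protein-coding HOX genes of the RefSeq gene table, and 22 of 14232 genes that had a cluster to themselves. HOXB was covered by 8 of its 10 genes, HOXC by 6 of 9 and HOXD by 7 of 9, while HOXA was covered by HOXA2 alone, 1 of 11. The HOXA code is therefore not described here beyond that gene.

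RNA was hybridised to 16 Affymetrix Human Exon 1.0 ST arrays, whose probes lie in the exons of each gene. All RNA came from GIST-T1, an established line of gastrointestinal stromal tumour (GIST) cells with an activating KIT mutation, transfected with siRNA at 50 nM. The control group was 2 arrays of cells given a nonsilencing siRNA (siCON), labelled 24 h and 72 h. The other 14 arrays held cells in which a single gene was silenced, 1 array per gene. Zinc fingers made up 10 of them (ZNF91, ZNF100, ZNF429, ZNF43, ZNF85, ZNF254, ZNF708, ZNF665, ZNF528 and ZNF431), and 4 were others, GTF21 (the label for the transcription factor gene GTF2I), IGF2R, IGFBP2 and RASSF8. No knockdown was repeated, so the different knockdowns stand in for replicates, and their spread includes whatever differs between the silenced genes. The 2 controls differ in labelled time, so the spread between them includes any change over time. No source says whether they came from independently grown cultures, so that p-values cover the spread between arrays alone. When the knockdown cells were harvested is not stated in the labels or the paper.

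Values are log2 expression estimates, on which a difference of 1 is a doubling. The GIST markers were high: KIT, the receptor that drives the tumour, read 13.42 and 13.28 on the siCON arrays and the chloride channel gene ANO1 12.90 and 12.93. The table holds no call of which genes were detected, so the 95th percentile of 220 olfactory receptor clusters on the same array served as a background level, since these genes are silent in most cells. It was 6.60 and 6.64 on the siCON arrays and between 6.59 and 7.16 on the knockdown arrays. All 9 measured GIST markers stood above it on both siCON arrays, against 0 of 4 endothelial, 1 of 4 immune, 3 of 5 smooth muscle and 3 of 6 epithelial markers. The single call among all these markers in the comparison of knockdown with siCON was EPCAM, an epithelial adhesion gene below the level, at 4.39 and 5.50 on siCON and 4.17 ± 0.0903 (SD, n = 14) after knockdown. The median olfactory receptor cluster read higher than siCON on every knockdown array, by 0.07 to 0.38. The rise was largest on the RASSF8 (0.38), IGF2R (0.34), GTF21 (0.32) and ZNF528 (0.32) arrays. The 95th percentile was below both siCON arrays on the ZNF429 and IGFBP2 arrays. Of 5 silenced genes with a cluster of their own, IGFBP2, RASSF8 and ZNF254 were lowest on their own array. ZNF43 was not, but it read 9.77 there against a mean of 10.31 on siCON, rank 3 from the lowest. ZNF528 was also lowest on its own array, but at 4.54 against 4.72 on siCON it lay below the background level, where a rank shows nothing of the knockdown.

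Promoter sequences are shown for HOXD8, the HOX gene that was most reduced on average after knockdown, and for HOXD10 and HOXD3, members that lie on either side of it in the HOXD cluster. They come from RefSeq (GRCh38.p14, plus strand, 250 bases before to 50 after the start of the gene), printed 5′ to 3′ with each CG dinucleotide in capitals. HOXD10 spans chr2:176116528-176116827, HOXD8 chr2:176129455-176129754 and HOXD3 chr2:176157057-176157356.
HOXD10: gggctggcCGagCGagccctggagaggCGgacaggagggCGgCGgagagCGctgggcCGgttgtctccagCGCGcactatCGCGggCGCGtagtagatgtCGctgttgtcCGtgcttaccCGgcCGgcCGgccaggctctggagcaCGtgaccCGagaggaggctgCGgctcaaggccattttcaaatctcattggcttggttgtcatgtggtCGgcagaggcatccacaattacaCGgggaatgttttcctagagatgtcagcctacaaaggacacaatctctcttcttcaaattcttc
HOXD8: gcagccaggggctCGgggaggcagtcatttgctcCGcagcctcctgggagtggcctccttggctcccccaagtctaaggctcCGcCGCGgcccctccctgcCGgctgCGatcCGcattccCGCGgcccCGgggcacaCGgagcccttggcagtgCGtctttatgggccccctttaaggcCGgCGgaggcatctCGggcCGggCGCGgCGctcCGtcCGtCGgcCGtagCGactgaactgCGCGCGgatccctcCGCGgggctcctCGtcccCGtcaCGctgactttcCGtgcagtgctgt
HOXD3: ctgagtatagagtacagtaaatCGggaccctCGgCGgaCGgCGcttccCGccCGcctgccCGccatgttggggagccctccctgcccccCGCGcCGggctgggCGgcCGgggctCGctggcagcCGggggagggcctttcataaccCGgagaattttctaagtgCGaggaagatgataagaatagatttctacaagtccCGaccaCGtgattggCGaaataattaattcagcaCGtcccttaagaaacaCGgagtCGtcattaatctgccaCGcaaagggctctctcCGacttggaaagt
The promoter of HOXD8 held 34 CG dinucleotides, more than 84.4% of the 35116 promoters in the RefSeq table, whose median was 14. HOXD10 held 23 and HOXD3 25. A promoter was found for 8 of the 22 members, HOXA2, HOXB1, HOXD3, HOXD8, HOXD10, HOXD11, HOXD12 and HOXD13, with 11 (HOXA2 and HOXB1) to 34 CG dinucleotides. Searched on both strands, the palindrome CACGTG, an E-box, occurred in HOXD3, HOXD10, HOXD11 and HOXD13, against 7.26% of all promoters. CACGTG itself contains a CG, and these windows held 25, 23, 27 and 24 CG dinucleotides, against the median of 14. The share over all promoters is therefore not matched for CG content. The TATA box TATAAA occurred in HOXD13 among these 8 (11.5% of all promoters), and CCAAT in HOXA2, HOXB1, HOXD3, HOXD10, HOXD12 and HOXD13 (34.6%). TGATTNAT, the motif of PBX and HOX proteins bound together, occurred in HOXA2 and HOXD11 (2.82%). None of these 4 motifs lies in the HOXD8 window. A match or its absence describes these letters and was not tested against the expression values.

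HOX genes of low and of high number were above background in GIST-T1 cells. Of the 22 members, 15 (68.2%) exceeded the olfactory receptor level on both siCON arrays, against 66.7% of all 22011 clusters, so the count as a whole is near that of any set of clusters. At this level 11 of 12 genes of paralog groups 9 to 13 were above the level (91.7%) and 4 of 10 genes of groups 1 to 8 (40.0%). By cluster, 6 of 6 HOXC genes, 6 of 7 HOXD genes, 3 of 8 HOXB genes and 0 of 1 HOXA genes were above it. No test was made of these shares. Probe sets differ in affinity, so a level says whether a gene stood above the background and does not rank genes by amount of RNA. The level is also not a detection call, since 5 of 6 homeobox genes of the ParaHox and caudal groups exceeded it. The brightest of these, GSX1, read 8.48 and 8.60, and only HOXB2, HOXC10, HOXC13, HOXD3, HOXD8 and HOXD13 exceeded it on both siCON arrays, as 36.7% of all clusters did. By that reference 3 of 10 genes of groups 1 to 8 and 3 of 12 of groups 9 to 13 were above. Of the 5 clusters that low-numbered HOX genes share with other genes, 4 also exceeded the olfactory receptor level. The stricter reference was chosen after the data were seen.

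**Figure D1:**
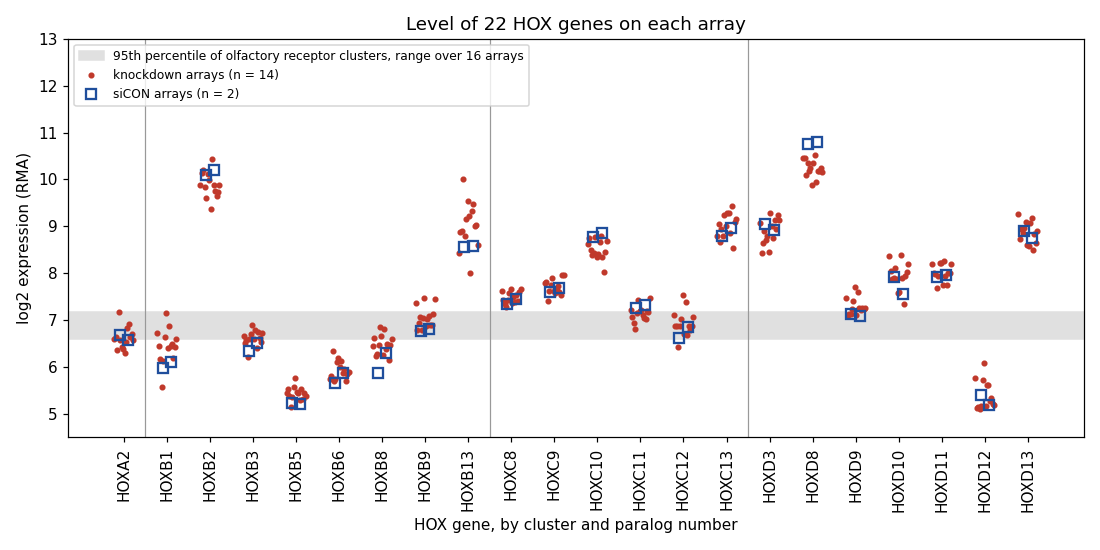
Log2 expression of 22 HOX genes, ordered by cluster and paralog number, on 2 siCON arrays (squares) and 14 knockdown arrays (dots). The grey band runs from the lower siCON value of the olfactory receptor 95th percentile (6.60) to its highest knockdown value (7.16, IGF2R). Against the level of their own siCON arrays, all 6 HOXC genes and 6 of 7 HOXD genes were above it, and in HOXB only HOXB2, HOXB9 and HOXB13 were.

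The HOXD cluster, which in the embryo patterns the trunk, limbs and external genitals, held the brightest member. HOXD8, which acts in the trunk, read 10.75 and 10.79 on the siCON arrays labelled 24 h and 72 h. HOXD3, an anterior member linked to cell adhesion, read 9.05 and 8.91, with 14 knockdown arrays from 8.44 (ZNF91) through a median of 8.92 to 9.29 (IGFBP2). Among the posterior genes, HOXD13, known for digit formation, read 8.89 and 8.76, with knockdown arrays from 8.49 (ZNF431) through 8.87 to 9.26 (GTF21). For both genes the siCON values lay inside the range of the knockdown arrays. HOXD11, which shapes the forearm, read 7.91 and 7.95, with knockdown arrays from 7.69 (ZNF429) through 7.999 to 8.26 (RASSF8). HOXD10, which acts in the hindlimb and lumbar motor neurons, read 7.92 and 7.55, with knockdown arrays from 7.34 (ZNF431) through 7.92 to 8.38 (RASSF8). HOXD9 read 7.12 and 7.08, with knockdown arrays from 7.10 (ZNF91) through 7.24 to 7.70 (IGF2R). These 3 genes also overlapped between the groups, and the siCON arrays differed from each other by 0.37 in HOXD10. HOXD12 was the member of the cluster that stayed below the level, at 5.41 and 5.19.

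In HOXC, whose genes act from the thorax to the tail and in skin and hair, all 6 measured members were above the level. HOXC13, required for hair and nail formation, read 8.80 and 8.96, with knockdown arrays from 8.54 (ZNF528) through 9.02 to 9.44 (ZNF431). HOXC10, a lumbar gene, read 8.78 and 8.86, with knockdown arrays from 8.03 (ZNF528) through 8.47 to 8.80 (ZNF254). These were the brightest clusters of the group, and HOXC10 was below both siCON arrays on 13 of 14 knockdown arrays. HOXC9, a thoracic gene, read 7.59 and 7.69, with knockdown arrays from 7.41 (ZNF100) through 7.68 to 7.96 (ZNF665). HOXC8, its neighbour, read 7.34 and 7.45, with knockdown arrays from 7.28 (ZNF429) through 7.46 to 7.67 (ZNF708), and had the smallest spread of the 22 genes (SD 0.127, n = 14). HOXC11 read 7.25 and 7.32, with knockdown arrays from 6.81 (ZNF429) through 7.15 to 7.46 (ZNF708), 12 of 14 below both siCON arrays. HOXC12 was close to the background at 6.61 and 6.85, with knockdown arrays from 6.43 (ZNF429) through 6.88 to 7.54 (IGF2R).

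HOXB, whose low-numbered genes pattern the hindbrain and blood cell precursors, was above background in HOXB2, HOXB9 and HOXB13 of its 8 measured genes. HOXB2, a hindbrain gene, read 10.09 and 10.19, with knockdown arrays from 9.38 (IGFBP2) through 9.87 to 10.43 (RASSF8). HOXB13, which acts in the prostate and hindgut, read 8.55 and 8.58. HOXB9 was just above the level at 6.77 and 6.80, with knockdown arrays from 6.78 (ZNF91) through 7.03 to 7.47 (IGF2R). The members numbered between HOXB2 and HOXB9 were not above it, whereas the cluster that HOXB4 shares with MIR10A was at 7.60 and 7.59. HOXB3 read 6.34 and 6.51, HOXB5 5.22 and 5.21, HOXB6 5.64 and 5.88, and HOXB8 5.88 and 6.30. HOXB1, which acts in the fourth hindbrain segment, read 5.96 and 6.11, and HOXA2, a hindbrain and branchial arch gene, 6.67 and 6.56, above the level on the 24 h array and below it on the 72 h array. The knockdown values of HOXA2 ran from 6.30 (IGFBP2) through 6.59 to 7.17 (ZNF429), around the siCON values. The number of HOX genes above the level ran from 13 to 16 over the 14 knockdown arrays, against 15 that were above it on both siCON arrays.

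A further 5 clusters name a HOX gene together with another gene and do not belong to the members, since their values cannot be assigned to 1 gene. The cluster of HOXD4, MIR10B and HOXD3 read 9.98 and 9.86 on siCON and 9.89 ± 0.198 (SD, n = 14) after knockdown, and that of HOXD1 and HAGLR read 9.52 and 9.58 against 9.36 ± 0.228 (SD, n = 14). The cluster of HOXC6, HOXC4, HOXC5 and MIR196A2 read 7.42 and 7.52, that of HOXB4 and MIR10A 7.60 and 7.59, and that of HOXB7 and MIR196A1 5.63 and 5.67. All but the last stood above the olfactory receptor level. The remaining HOX genes were not analysed here.

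HOXD8 was lower on every knockdown array than on either siCON array, and no other member showed such a separation. Its 14 knockdown values ran from 9.88 (IGF2R) through a median of 10.21 to 10.52 (RASSF8), all below 10.75, the lower of the siCON values. The mean difference was −0.54 (SE 0.140), a 1.45-fold lower level, and the arrays differed from the siCON mean by −0.25 (RASSF8) to −0.89 (IGF2R). In limma this gave p = 0.00112 and an adjusted p of 0.107 over all clusters, short of the threshold of 0.05. Every knockdown array lay below both siCON arrays in 4.52% of all clusters and above both in 4.81%, against 1 of 22 and 0 of 22 HOX genes, so 1 such gene is what the background share gives. Among the 10 zinc finger knockdowns alone the difference was −0.57 with an adjusted limma p of 0.0422, in a fit that called 0.232% of all clusters lower. Compared directly, HOXD8 had means of 10.20 in zinc finger and 10.30 in other knockdowns, a difference of −0.10 (adjusted limma p = 0.650). Without the GTF21, IGF2R and RASSF8 arrays, a choice made after the data were seen, the difference from siCON was −0.55 with an adjusted p of 0.0433. In that fit 0.273% of all clusters were called lower. Leaving out either siCON array raised the adjusted p to 0.682 or 0.776, with fewer clusters called in all. The upper quartile of all clusters was 9.41 and 9.40 on siCON and lower than both on 13 of 14 knockdown arrays, with the ZNF429 array as the exception. With the trend of each array's differences on mean expression removed, HOXD8 differed by −0.48 (adjusted limma p = 0.115).

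**Figure D2:**
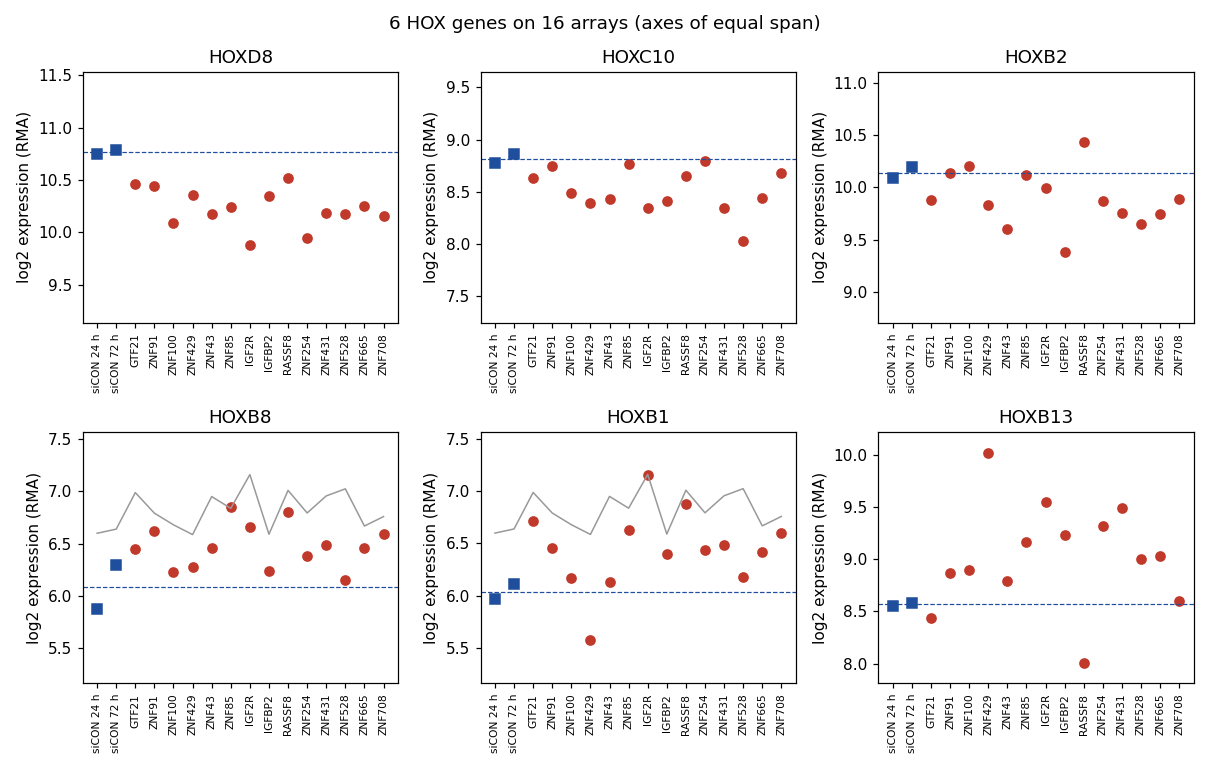
Log2 expression of HOXD8, HOXC10, HOXB2, HOXB8, HOXB1 and HOXB13 on each of 16 arrays (squares, siCON; dots, knockdowns), with the siCON mean dashed and, where it falls in range, the olfactory receptor 95th percentile of each array as a grey line. HOXD8 lies below both siCON values on all 14 knockdown arrays, while HOXB13 ranges from 8.01 (RASSF8) to 10.02 (ZNF429) around siCON values of 8.55 and 8.58.

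Across the members, no HOX gene passed the adjusted threshold. Limma called 0 of 22 lower and 0 of 22 higher, where it called 0.282% and 0.259% of all clusters. At an unadjusted p under 0.05, HOXD8 was lower and HOXB8 higher, 1 of 22 each, against 6.93% and 7.77% of all clusters, so that both counts are near the background. HOXB8, a trunk gene also active in blood cell precursors, had knockdown values from 6.15 (ZNF528) through 6.46 to 6.85 (ZNF85) and a difference of 0.39 (SE 0.162, p = 0.0280, adjusted p = 0.294 in limma). It stayed below or near the olfactory receptor level, and its siCON arrays differed from each other by 0.42, the widest gap of any member. HOXC10 had the next lowest mean, at −0.31 (SE 0.154, adjusted p = 0.350), followed by HOXB2 at −0.25 (SE 0.189, adjusted p = 0.464), below both siCON arrays on 10 of 14. HOXC11 followed at −0.14 and HOXD3 at −0.08. All other members had mean differences of 0.00 or above.

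The HOXB genes had the highest median difference, 0.24, with 7 of 8 means above siCON. The median was 0.07 in HOXC (4 of 6 above), 0.08 in HOXD (5 of 7 above), 0.00 for HOXA2 and 0.07 over all clusters, of which 13080 were above and 8931 below. Grouped by level, the 15 members above the olfactory receptor level had a median of 0.08 with 10 means above siCON. The 7 that were not had a median of 0.18 with 7 above, HOXA2 at 0.00 among them. Olfactory receptor clusters had a median of 0.21, with 197 of 220 above. HOXB1 (0.41, above both siCON arrays on 13 of 14), HOXB5 (0.21, 13 of 14) and HOXB9 (0.27, 12 of 14) lay at or near that dim end. HOXB13, with the largest mean difference of the HOXB genes (0.46), did not, at 8.55 and 8.58 on siCON. Whether level accounts for the HOXB median was not tested. After the same removal of the trend, the medians were 0.15 in HOXB, 0.01 in HOXC, 0.05 in HOXD and −0.10 for HOXA2, and HOXB8 differed by 0.28 (adjusted limma p = 0.384).

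**Figure D3:**
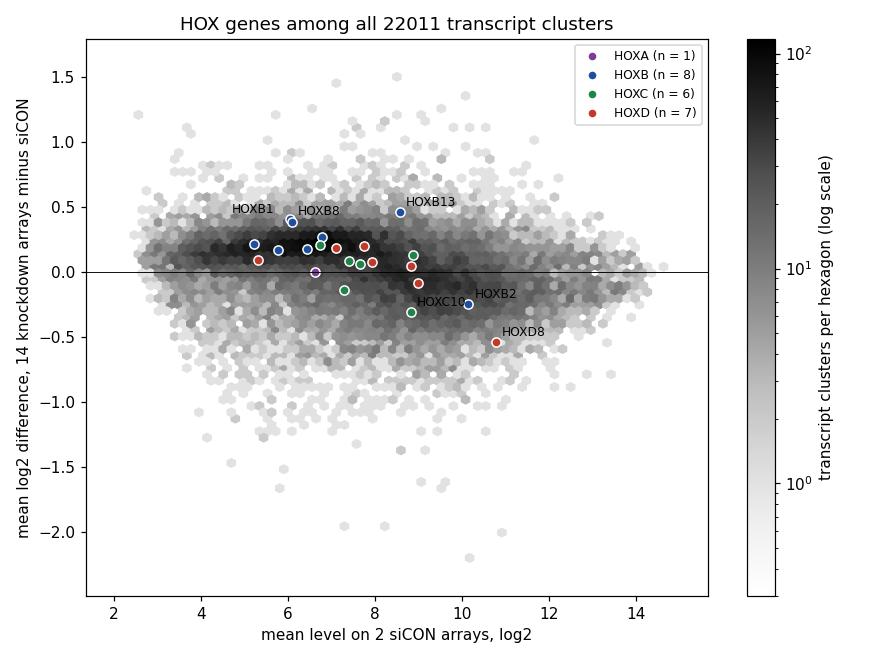
Mean log2 difference of 14 knockdown arrays from siCON against the mean level on 2 siCON arrays, for 22011 transcript clusters (grey, number per hexagon on a log scale) and 22 HOX genes (coloured by cluster). Of the 7 members not above the olfactory receptor level, HOXA2 lies at 0.00 and HOXB1 (0.41) and HOXB8 (0.39) highest, and HOXB13 (0.46) and HOXD8 (−0.54) are the members farthest from 0.

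HOXB13 varied most among the knockdowns. Its SD over 14 arrays was 0.502, against a median of 0.219 over the HOX genes and 0.214 over all clusters, of which 3.94% had a larger SD. It read 10.02 after silencing ZNF429, 9.55 after IGF2R, 9.48 after ZNF431 and 9.32 after ZNF254, and 8.01 after RASSF8 and 8.44 after GTF21. The siCON values, 8.55 and 8.58, were close together and lay between these extremes. Differences from their mean ran from −0.56 (RASSF8) to 1.45 (ZNF429), with 12 arrays above and 2 below both siCON values. The mean difference of 0.46 (SE 0.328) had an adjusted p of 0.444 in limma. PRAC1, a small gene beside HOXB13 that is known from prostate and hindgut, differed by 0.28 (adjusted p = 0.295) and was not above the olfactory receptor level. Each extreme rests on 1 array and has no replicate check.

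On single arrays, a HOX gene differed from the siCON mean by at least 0.5 in either direction in a small share of cases. Over the 14 arrays and 22 genes, 15 of 308 values were at −0.5 or less (4.87%, against 7.78% of all clusters) and 29 of 308 at 0.5 or more (9.42%, against 7.54%). Only 2 of the 308 reached 1 in size, HOXB13 on the ZNF429 array at 1.45 and HOXB1 on the IGF2R array at 1.11. HOXD8 gave 9 of the 15 low values, and HOXB2 and HOXD3 2 each. HOXB genes gave 21 of the 29 high values, 18.8% of their 112, of which HOXB13 gave 6 and HOXB1 and HOXB8 5 each. HOXC genes gave 3 of 84 (3.57%) and HOXD genes 4 of 98 (4.08%). The GTF21, IGF2R and RASSF8 arrays were then set aside, a choice made after the data were seen. The ZNF528 array, where olfactory receptor clusters rose by about as much as on the GTF21 array (0.32 each), was kept. Without the arrays set aside, 14 of 242 HOX values were at 0.5 or more (5.79%, all clusters 5.63%). At −0.5 or less there were 12 (4.96%, all clusters 6.54%).

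**Figure D4:**
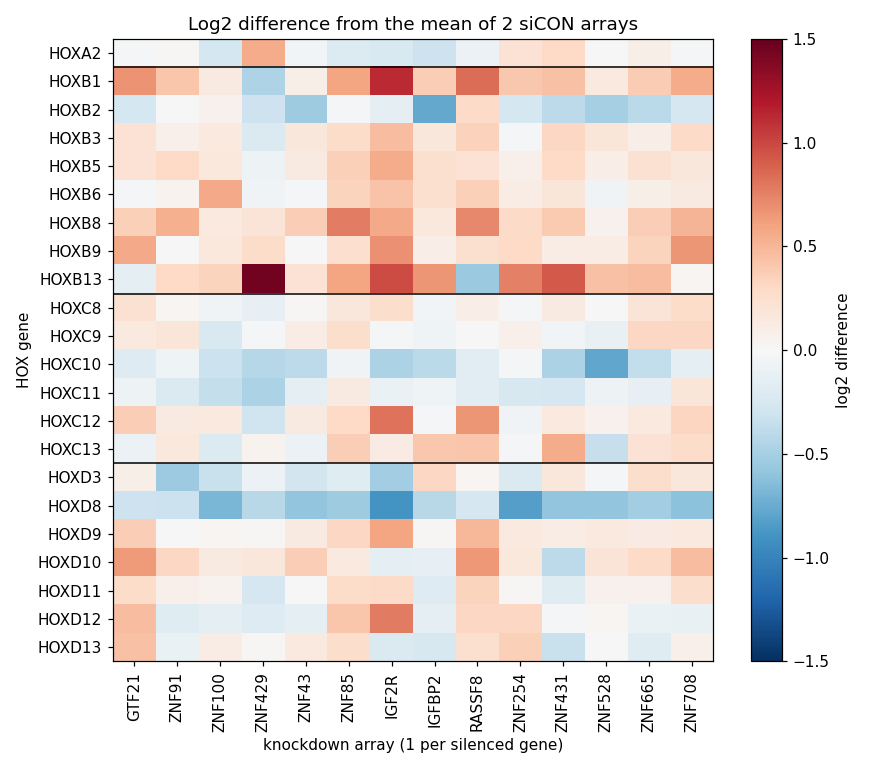
Log2 difference of each HOX gene (rows, by cluster) from the mean of 2 siCON arrays on each of 14 knockdown arrays (columns), red for higher and blue for lower. The HOXD8 row is blue throughout, and the deepest red cell is HOXB13 on the ZNF429 array (1.45).

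The IGF2R array had most HOX genes past this threshold. HOXB1, HOXB13, HOXC12, HOXD12, HOXB9, HOXD9, HOXB8 and HOXB5 were at least 0.5 higher there (8 of 22, where 21.2% of all clusters were), and HOXD8 and HOXD3 at least 0.5 lower (2 of 22, all clusters 15.4%). Its HOXB median was 0.56, and 7 of the 22 genes had their highest knockdown value on it, as did 22.2% of all clusters. The RASSF8 array had HOXB1, HOXB8, HOXC12 and HOXD10 higher (all clusters 13.2%) and HOXB13 lower (12%). The GTF21 array had HOXB1, HOXD10 and HOXB9 higher (9.2%) and no HOX gene lower (9.5%), with a HOXD median of 0.36. On these 3 arrays the olfactory receptor clusters rose by a median of 0.34, 0.38 and 0.32. The rise was also 0.32 on the ZNF528 array, where no HOX gene was at least 0.5 higher. A link between this rise and the HOX values was not tested. The IGFBP2 array had HOXB13 higher (6.38%) and HOXB2 lower (7.7%), with HOXB2 at −0.76.

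Among the zinc finger knockdowns, the ZNF429 array held the lowest knockdown value of 8 of the 22 genes, as it did for 18.7% of all clusters, and it was the array with a median difference below 0 over all clusters (−0.01). HOXB13 and HOXA2 were at least 0.5 higher on it (4.98% of all clusters) and none lower (4.62%). HOXD8 was at least 0.5 lower on the arrays of ZNF100 (4.7%), ZNF43 (4.95%), ZNF85 (9.11%), ZNF254 (7.05%), ZNF431 (9.41%), ZNF528 (5.73%), ZNF665 (5.87%) and ZNF708 (6.6%), with HOXB2 beside it on the ZNF43 array and HOXC10 on the ZNF528 array. HOXC10 was at −0.78 there, its lowest value. On the ZNF91 array HOXD3 was lower (6.17%) and HOXB8 higher (3.96%). HOXB6 was higher on the ZNF100 array (4.52%), and HOXB13 on the ZNF254 array (6.32%). The ZNF85 array had HOXB8, HOXB1 and HOXB13 higher (8.84%), and the ZNF431 array HOXB13 and HOXC13 (9.06%). The ZNF708 array had HOXB9, HOXB1 and HOXB8 higher (3.81%), 3 of 22 genes. No HOX gene was at least 0.5 higher on the arrays of ZNF43 (4.48%), ZNF528 (4.64%) or ZNF665 (4.9%). With 1 array per knockdown, none of these differences has a test.

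Whether the kind of silenced gene mattered was compared in the knockdown arrays alone, 10 of zinc finger genes against 4 of other genes. Limma called 0 HOX genes, as it called 0% of all clusters. At an unadjusted p under 0.05 there were 4 of 22 (all clusters 18.3%), each lower in the zinc finger knockdowns. They were HOXB1 (−0.48, adjusted p = 0.233), HOXC12 (−0.35, 0.236), HOXD9 (−0.25, 0.235) and HOXD12 (−0.37, 0.237). Without the IGFBP2 array all 4 passed, with adjusted p between 0.0229 and 0.0417, as did 12.3% of all clusters. That left GTF21, IGF2R and RASSF8 as the other knockdowns. Olfactory receptor clusters rose by a median of 0.32, 0.34 and 0.38 on these arrays, against 0.07 on the IGFBP2 array. The kind of silenced gene and this rise cannot be told apart in that fit. All 4 genes had their highest value on the IGF2R array, and HOXB1 and HOXD12 were not above the background level on siCON.

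Genes that work with or act on HOX genes are given with their calls, where limma called 0.282% of all clusters lower and 0.259% higher. At those shares, 0 calls in lists this short says little of these genes. HOX proteins bind DNA together with the PBX and MEIS (TALE) homeodomain proteins, of which 6 of 9 were measured and all 6 stood above the olfactory receptor level. MEIS1 read 10.92 and 10.98. Limma called 0 of these 6, and the smallest p values were those of PBX3 (−0.46, adjusted p = 0.357), PBX2 (−0.19, 0.595) and MEIS2 (−0.15, 0.555). Polycomb proteins keep HOX genes silent through histone methylation and ubiquitination, and 22 of 27 such genes were measured with 0 called. EZH2, the methyltransferase, differed by −0.57 (adjusted p = 0.271), its partner MTF2 by −0.47 (0.222) and JARID2 by 0.33 (0.315). Trithorax proteins oppose them. Of a list of 15 Trithorax and other HOX chromatin genes 10 were measured and 0 called. The smallest p values on this list were those of KDM6A, a histone demethylase (−0.29, adjusted p = 0.243), DPY30 (−0.58, 0.285) and PSIP1 (−0.45, 0.340). At an unadjusted limma p under 0.05, 4 of 22 Polycomb genes were lower and 1 higher. Of the 10 genes on the list of Trithorax and other HOX chromatin genes 3 were lower and 0 higher. Over all clusters 6.93% were lower and 7.77% higher.

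Retinoic acid switches on HOX genes in the embryo in the order of their position. Of its 18 listed enzymes, receptors and binding proteins 16 were measured, and 0 were called. ALDH1A2, which makes retinoic acid, differed by 0.37 (adjusted p = 0.247), the receptor RARA by 0.24 (0.321) and CYP26B1, which degrades it, by 0.18 (0.403). Of the 16 genes 9 stood above the olfactory receptor level on both siCON arrays. ALDH1A2 did not, at 5.48 and 5.39. The ParaHox and caudal genes, relatives of the HOX genes, were all 6 measured and 0 called, with CDX2 at 0.34 (adjusted p = 0.258), GSX2 at 0.37 (0.348) and GSX1 at 0.17 (0.470). Of 17 listed long noncoding RNAs of the HOX clusters only HOXB-AS3 had a cluster to itself. It read 7.64 and 7.76 on siCON and differed by 0.19 (adjusted p = 0.475).

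Of 19 genes beside the HOX clusters, 16 were measured. Limma called 1 of 16 lower and 0 higher, where it called 0.282% and 0.259% of all clusters. SNX10, a sorting nexin gene on the side of HOXA, read 7.97 and 7.86 on siCON and between 6.76 and 7.42 after knockdown. It was below both siCON arrays on 14 of 14 knockdown arrays, as 4.52% of all clusters were. SNX10 differed by −0.86 on average (SE 0.159, adjusted limma p = 0.0231). Without the 24 h or the 72 h siCON array its adjusted p was 0.484 or 0.505. MTX2, a mitochondrial import gene beside HOXD, differed by −0.55 (adjusted p = 0.199).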

How the data were processed

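Total RNA of GIST-T1 cells was hybridised to 16 Affymetrix Human Exon 1.0 ST arrays, 2 with siCON and 14 with 1 silenced gene each. RMA normalization was run by the authors with oligo, and the deposited values are log2 expression for 22011 transcript clusters. The submitters' processing notes name hg19, and versions are not given in the sources used here. RMA sets all arrays to a common distribution of probe values, so a general shift in RNA amount cannot be seen. A figure legend of the paper gives 48 h for the first siCON array and the labels give 24 h. Of the clusters, 14432 carry 1 gene symbol, 2408 several and 5171 none. A gene was read from its cluster with 1 symbol, and no HOX gene had several. Values were used as deposited.

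The 14 knockdown arrays were compared with siCON with limma 3.58.1 in R 4.3.3 (eBayes after lmFit), fitted to all clusters with Benjamini-Hochberg adjustment and a threshold of 0.05, and zinc finger with other knockdowns likewise. The script was tested on simulated data. The number of arrays limits the precision. Python 3.11.15, numpy 2.4.6, pandas 2.3.3 and matplotlib 3.10.9 were used. Every HOX member was named. Array values or ranges were given for members above the olfactory receptor level, with an unadjusted p under 0.05 or non-overlapping groups, and for the largest difference of each cluster, and beyond that rule where the text singles out a member after its values were seen. Of each other list the 3 members with the smallest p and those called were named, and markers and bright genes beyond that rule likewise after their values were seen. The members, lists and tests were chosen with earlier results of these data known. Alternatives were other scalings (median-centred, quantile-normalized), removal of the trend on mean expression (loess, span 0.3), a filter on dim clusters, limma with trend and robust variance, the methods' t-test, other thresholds, zinc finger knockdowns without the others, and each array left out in turn. The siRNA screen and other assays were not analysed here.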

Additional observations from a re-analysis of the deposited data

How the results depend on the processing

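Of 308 alternative values 292 kept their direction and side of the threshold, or moved by less than the limit set for them. Some of these could not move. The count above the olfactory receptor level rests on the siCON arrays alone, so leaving out a knockdown array cannot change it. Averaging a gene's clusters, another alternative, left HOX differences as they were, since no HOX gene had several. The limit was also wide for counts, with 15 against 11 taken as kept. Values with no call crossed 0: the median of HOXD was −0.02 without the 72 h siCON array, and HOXA2, at 0.00, was −0.05 in median-centred and −0.11 in quantile-normalized values. The 15 HOX genes above the olfactory receptor level became 11 to 17 with the 99th or 90th percentile and 6 above the brightest ParaHox or caudal gene. HOX genes called lower numbered 1, HOXD8, in the zinc finger knockdowns alone (−0.57, adjusted p = 0.0422; all clusters 0.232%) and without the GTF21, IGF2R and RASSF8 arrays (−0.55, 0.0433; all clusters 0.273%), the latter chosen after seeing the data. Over all alternatives its difference lay between −0.59 and −0.48 and its adjusted p between 0.0422 and 0.776, and that of HOXB8 between 0.18 and 0.60 with adjusted p between 0.230 and 0.874. HOX genes below both siCON arrays throughout numbered 2 in median-centred values and 1 to 2 with an array left out, HOXC10 joining HOXD8 without the ZNF254 array. Those above both numbered 0 to 3 with an array left out (2, HOXB1 and HOXB5, without ZNF429), 1 in the zinc finger knockdowns alone and 1 without the GTF21, IGF2R and RASSF8 arrays. Without an siCON array the groups are easier to separate by construction. HOX genes called between zinc finger and other knockdowns numbered 0 to 4 with an array left out (4 without IGFBP2, where 12.3% of all clusters were called). The median count per array was 0 lower and 0 higher at a log2 difference of 1. Median differences ranged from 0.14 to 0.28 in HOXB, 0.01 to 0.12 in HOXC, −0.02 to 0.11 in HOXD and −0.11 to 0.07 for HOXA2. Over all clusters limma called 62 lower and 57 higher, 8 and 5 without the 24 h siCON array and 2 and 0 without the 72 h array. No paired analysis was possible because the replicate numbers only name the arrays. The dim HOX genes lie near background, where olfactory receptor clusters had a median difference of 0.21. Whether differences are compressed at that level was not tested.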
